A study of Mus musculus with 5 samples.

Results

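The class I and class II genes of the mouse major histocompatibility complex (MHC) were followed in single γδ T cells sorted by flow cytometry. Members were all gene symbols that start with H2-, together with B2m, Cd74, Tap1, Tap2, Tapbp, Ciita and Nlrc5, provided that a gene had at least 10 unique molecular identifiers (UMIs, each marking 1 captured transcript) over the 5 count matrices. Of 41 matching symbols among 27998 genes, 29 were members. They comprised 18 class I genes, 10 class II genes, and H2-Ke6, a hydroxysteroid dehydrogenase gene that carries the prefix only for its place. Of the 12 symbols left out, 10 had no UMI at all, and H2-Q1 and H2-T3 had 8 and 4. On mouse build GRCm38, 25 members lay on chromosome 17, with Tap1 (chr17:34187553-34197225), Tap2 (chr17:34203527-34216321) and H2-Ab1 (chr17:34257689-34269419) among the class II genes and H2-D1 (chr17:35262730-35267499) and H2-Q2 (chr17:35342242-35346762) farther along. The others were B2m (chr2:122147686-122153083), Nlrc5 (chr8:94434356-94527272), Ciita (chr16:10480059-10528418) and Cd74 (chr18:60803848-60812652), all protein-coding.

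The study asked how γδ T cells with the Vγ4 or the Vγ6 receptor chain differ between tissues. There were 5 libraries, 1 for each group. From C57BL/6 mice aged 8 weeks came Vγ4 cells of the ear and Vγ6 cells of 3 sources, namely ear skin, the thymus and peripheral lymph nodes (pLN). The fifth was a Vγ6 mixture that was not demultiplexed, from mice aged 8 to 10 weeks: lymph node of TcrdCreER, thymus of ACT-FLPe and ear skin of TcrdH2BeGFP animals. Ear tissue spent 75 minutes in collagenase, thymus was treated with antibodies and complement for 30 minutes to remove CD4 and CD8 cells, and no such incubation was given for lymph node. Tissue and preparation therefore cannot be told apart, and neither the labels nor the files give the number of animals behind a library.

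Cells kept per library numbered 687 (skin Vγ6) to 2517 (thymus Vγ6), with 793463 to 6607432 UMIs in all and medians of 1059 to 2156 UMIs per cell. All 10 markers of IL-17-producing γδ T cells, among them Cd3e and Blk, were detected in every library, with a summed level of 3214 to 6847 CPM (a gene's UMIs per 1000000 UMIs of the library's kept cells). From 7 to 31 barcodes per library also occurred in another library, and leaving those cells out changed no call. The marker lists of other cell types did not all stand at 0: antigen-presenting-cell markers summed to 315 to 626 CPM, with 3 to 14 of 24 genes at 0 in each library. Cst3 alone gave 212 to 401 CPM of these sums. Keratinocyte markers reached 1146 CPM in skin Vγ4 against 59.8 to 261 elsewhere. Their part in the results below was not tested, except where a value without the cells concerned is given.

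MHC class I molecules stand on nearly every nucleated cell and show peptides from inside the cell to CD8 T cells and to receptors of natural killer cells. A polymorphic heavy chain (H2-K1 and H2-D1 encode the classical ones in C57BL/6, whose MHC haplotype is H-2b) pairs with the light chain B2m. Peptides are carried into the endoplasmic reticulum by the Tap1 and Tap2 transporter and loaded with the help of tapasin (Tapbp), and Nlrc5 is the main transactivator of these genes. Class II molecules are αβ pairs (H2-Aa with H2-Ab1) that show peptides from the endosome to CD4 T cells, and are typical of dendritic cells, B cells and macrophages. Cd74, the invariant chain, escorts them, H2-DM (H2-DMa with H2-DMb1 or H2-DMb2) exchanges their peptide, H2-O (H2-Oa with H2-Ob) restrains H2-DM, and Ciita is their master transactivator.

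Promoter sequences are shown for 5 members whose levels part company in the results: H2-K1 and H2-D1 with H2-Q2, a nonclassical class I gene, and H2-Aa with H2-Oa. Each is the RefSeq window of build GRCm38.p6 from 250 bases before to 50 bases after the start that RefSeq gives the gene, 5′ to 3′ on the strand of the gene. Capitals mark 4 short motifs searched on both strands: GGGATTCCC (a κB type site), GAAANNGAA (an interferon response type element), GATTGG (the core of the Y box) and TGACG (the core of the X2 box). The windows lie at chr17:34000298-34000597 (minus strand), chr17:35262844-35263143 (plus strand), chr17:35342057-35342356 (plus strand), chr17:34287774-34288073 (minus strand) and chr17:34092129-34092428 (plus strand). RefSeq's starts of H2-D1, H2-Q2 and H2-Oa differ from the GENCODE starts used for the positions of the members, and the H2-D1 window lies wholly after its GENCODE start.
H2-K1: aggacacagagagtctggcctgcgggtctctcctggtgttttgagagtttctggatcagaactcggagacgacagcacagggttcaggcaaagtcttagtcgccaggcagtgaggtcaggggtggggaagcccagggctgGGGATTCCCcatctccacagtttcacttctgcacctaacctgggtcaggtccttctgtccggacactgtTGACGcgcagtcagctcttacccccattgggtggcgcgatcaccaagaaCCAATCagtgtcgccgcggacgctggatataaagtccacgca
H2-D1: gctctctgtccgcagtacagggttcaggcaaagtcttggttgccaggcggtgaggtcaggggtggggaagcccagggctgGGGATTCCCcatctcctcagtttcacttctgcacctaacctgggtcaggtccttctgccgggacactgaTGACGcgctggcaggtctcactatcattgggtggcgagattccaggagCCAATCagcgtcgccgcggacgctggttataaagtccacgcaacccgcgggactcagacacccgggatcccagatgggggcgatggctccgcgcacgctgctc
H2-Q2: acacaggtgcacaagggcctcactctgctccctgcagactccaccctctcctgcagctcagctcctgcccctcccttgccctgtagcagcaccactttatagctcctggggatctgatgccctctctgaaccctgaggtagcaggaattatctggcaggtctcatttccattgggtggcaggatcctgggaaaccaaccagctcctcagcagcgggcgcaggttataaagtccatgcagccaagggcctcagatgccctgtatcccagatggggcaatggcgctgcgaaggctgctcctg
H2-Aa: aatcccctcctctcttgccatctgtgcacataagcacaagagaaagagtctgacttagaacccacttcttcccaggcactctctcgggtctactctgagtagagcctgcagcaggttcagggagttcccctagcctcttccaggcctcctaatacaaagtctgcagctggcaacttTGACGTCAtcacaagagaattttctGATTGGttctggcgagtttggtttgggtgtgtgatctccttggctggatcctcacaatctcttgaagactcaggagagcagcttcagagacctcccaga
H2-Oa: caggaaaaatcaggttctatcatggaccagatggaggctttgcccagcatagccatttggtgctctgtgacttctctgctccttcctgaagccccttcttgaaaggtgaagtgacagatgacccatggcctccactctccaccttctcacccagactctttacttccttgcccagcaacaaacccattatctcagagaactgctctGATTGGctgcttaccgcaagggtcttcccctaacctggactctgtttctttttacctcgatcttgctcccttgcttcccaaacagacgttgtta

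Of the 29 members, 23 matched a RefSeq promoter, 15 of class I and 7 of class II among them. The κB letters occurred in 4 of the 15 class I windows (H2-K1, H2-D1, H2-Q6 and H2-Q7) and in 0.370% of 27025 promoters. The Y box core was in 9 of 15 class I and 6 of 7 class II windows, against 16.6% of all promoters, and the X2 core in 9 of 15 and 1 of 7 (H2-Aa, where it lies on both strands of an overlapping run), against 21.02%. The interferon type letters were in the windows of B2m, H2-T23 and H2-T22, against 8.57% of all promoters. None of the 4 motifs was in the H2-Q2 window, although H2-Q2 is a close relative of the genes around it. H2-K1 and H2-D1 thus carry the same 3 motifs in the same order, while the H2-Oa window holds a single Y box core. A match is a run of letters and not a shown binding site, and no match says only that these letters are not in the window.

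Class I transcripts were abundant in all 5 libraries. B2m stood at 3045 CPM in Vγ4 of skin and, for Vγ6, at 3748 (skin), 4173 (pLN), 4479 (thymus) and 4727 (pool). H2-D1 stood at 2401, 3054, 2904, 2161 and 3301 CPM in the same order of libraries, which is kept below. H2-K1 stood at 863, 943, 795, 759 and 1139.9 CPM. These 3 genes spanned 1.502-fold to 1.55-fold from the lowest library to the highest, whereas the other 15 class I members were all below 220 CPM in every library. Since the reads come from the 3′ ends of transcripts, 1 UMI is 1 transcript end and levels are not divided by gene length.

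Nearly every cell held class I transcripts. A B2m UMI was found in 94.2% to 99.4% of the cells of each library, and an H2-D1 UMI in 92.7% to 99.5%. After every cell was thinned to 1000 UMIs, with shallower cells left out (0 of pLN, 75 of thymus, 125 of skin Vγ4, 297 of skin Vγ6 and 575 of the pool), H2-K1 was found in 56.1% of skin Vγ4, 57.2% of skin Vγ6, 59.4% of pLN, 51.6% of thymus and 66.3% of pooled cells. The unthinned shares were 70.3%, 61.1%, 82.9%, 76.2% and 74.1%. H2-D1 in thinned cells was lowest in thymus, at 84.2% against 89.0% to 95.5% elsewhere.

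Among the nonclassical heavy chains, H2-Q7 encodes Qa-2, and stood at 61.6, 129, 137, 148 and 176 CPM. H2-Q6, a close relative, stood at 23.8, 47.9, 29.4, 49.6 and 49.98 CPM. Skin Vγ4 was the lowest library for both. H2-T23, which encodes Qa-1 (the ligand of the inhibitory receptor of natural killer cells NKG2A), stood at 114, 106, 119, 68.0 and 200.3 CPM, with thymus lowest. H2-Q4 stood at 82.8, 98.3, 48.0, 81.7 and 77.3 CPM, with pLN lowest.

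H2-T22, a molecule that some γδ T cell receptors bind directly, stood at 20.2, 29.0, 60.3, 74.8 and 79.7 CPM, lower in both skin libraries than in the other 3. Of the 50-base stretches in the last 300 bases of its transcripts, 49.4% also occur in H2-T10, so reads of the pair cannot be told apart there. The like share was 45.4% for H2-Q4, 40.2% for H2-Q6 and 50.6% for H2-T23, with genes outside the MHC, so these levels are uncertain too. H2-M3, which presents formylated bacterial peptides, stood at 14.5, 16.4, 36.1, 24.8 and 47.96 CPM. It too was lowest in skin. H2-Q2 followed none of these orders, with 16.6, 3.78, 2.14, 24.7 and 5.74 CPM: it was high in thymus and skin Vγ4 and near the floor in pLN, where 9 UMIs lay in 9 cells.

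Of the loading genes, Tap1 stood at 9.31, 11.3, 47.5, 42.5 and 48.6 CPM and Tap2 at 36.7, 26.5, 103, 70.5 and 120.2 CPM. Both skin libraries were the lowest 2 for each. Tapbp stood at 84.8, 90.7, 135, 160 and 218 CPM, again with the skin libraries lowest. Nlrc5 was rare everywhere, at 4.14, 3.78, 6.89, 4.84 and 9.12 CPM, and its intervals overlap across the 4 unpooled libraries. H2-Ke6 varied little, between 63.9 and 98.3 CPM.

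**Figure D1:**
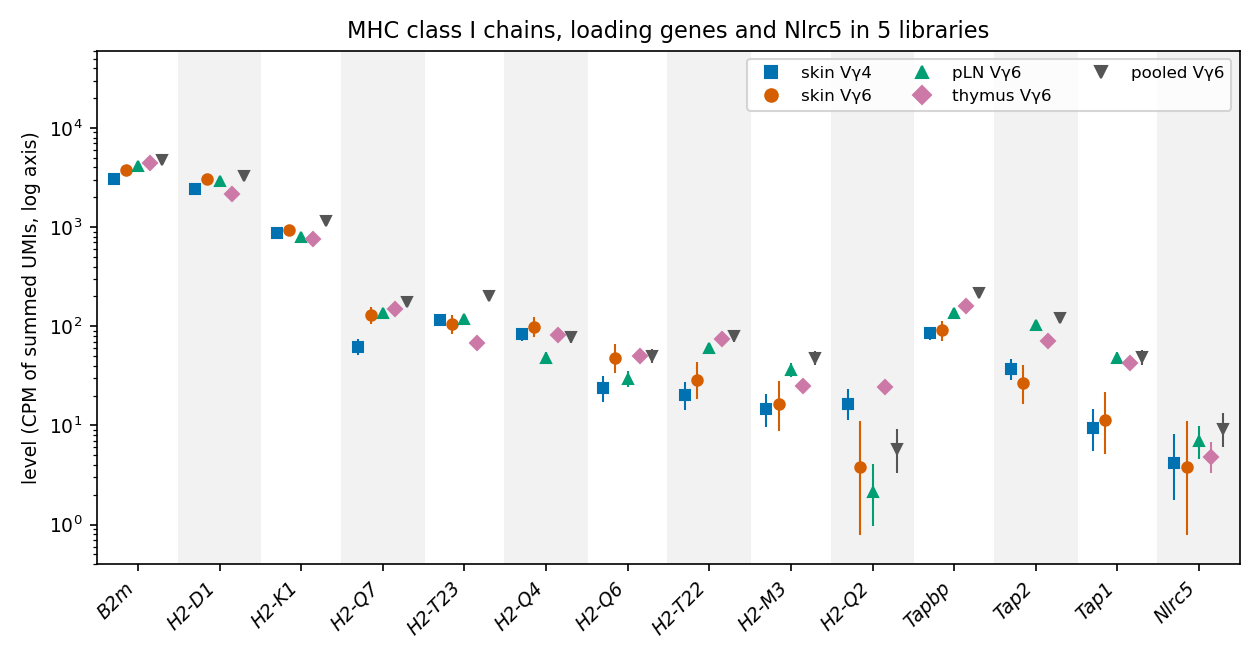
Level of each class I gene in 5 libraries, in CPM of summed UMIs on a log axis. Points are 1 library each and bars are exact Poisson 95% intervals (counting error only). B2m, H2-D1 and H2-K1 lie within 1.502-fold to 1.55-fold over the libraries, while Tap1, Tap2 and H2-T22 are lowest in the 2 skin libraries and H2-Q2 is highest in thymus.

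Class II transcripts were rarer and far less even. Cd74 stood at 35.7 CPM in Vγ4 of skin and, for Vγ6, at 406 (skin), 999 (pLN), 79.8 (thymus) and 808 (pool). H2-Ab1 stood at 3.10, 89.5, 218, 21.6 and 199 CPM, and H2-Aa at 0.517, 54.2, 139, 13.8 and 151 CPM. H2-Eb1, whose β chain finds no Eα partner in H-2b mice, stood at 0, 31.5, 70.1, 5.90 and 78.4 CPM. These 4 genes shared 1 order among the unpooled libraries: pLN highest, then skin Vγ6, then thymus, then skin Vγ4. Without cells of 10 or more class II UMIs, skin Vγ6 did not stand above thymus for H2-Aa and H2-Eb1, with log2 ratios of -0.74 and -1.21.

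The chains that edit peptides followed another order. H2-Oa stood at 4.14, 2.52, 9.97, 33.3 and 21.6 CPM, H2-Ob at 0.517, 0, 0.713, 20.4 and 7.09 CPM, and H2-DMa at 2.59, 6.301, 27.3, 41.3 and 27.7 CPM. Thymus was the highest library for all 3. Their partner chains did not share this: H2-DMb1 stood at 0, 3.78, 10.4, 4.24 and 14.5 CPM and H2-DMb2 at 0, 0, 19.0, 1.97 and 6.42 CPM, both lower in thymus than in pLN. Ciita was detected only in pLN, with 12 UMIs (2.85 CPM), and in the pool, with 4 (1.35 CPM). A count of 0 allowed up to 1.55 CPM in skin Vγ4, 3.78 in skin Vγ6 and 0.454 in thymus (3 counts), so Ciita at the pLN level could have been missed in skin Vγ6.

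**Figure D2:**
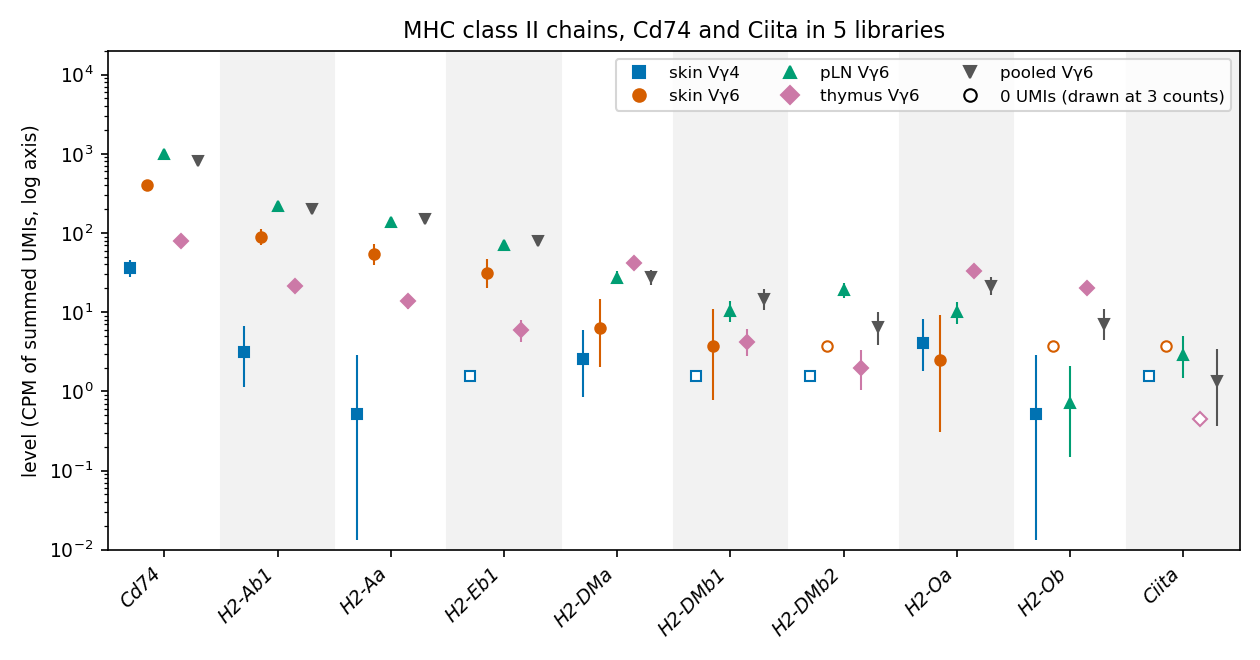
Level of each class II gene in 5 libraries, in CPM of summed UMIs on a log axis. Filled points are 1 library each with exact Poisson 95% intervals (counting error only), and open points stand at 3 counts where no UMI was found. Cd74, H2-Ab1, H2-Aa and H2-Eb1 are highest in pLN among the unpooled libraries, and H2-DMa, H2-Oa and H2-Ob are highest in thymus.

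In the comparisons that follow, a gene was measured when it had at least 20 CPM in either library. It was called when the CPM differed at least 2-fold and the exact conditional binomial 95% interval of the ratio, given in parentheses, excluded 1. With 1 library per group there was no test between conditions, and intervals cover counting error only. The 4 comparisons share libraries with each other.

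Between skin Vγ6 and pLN Vγ6, the summed class I chains were nearly level, while both subunits of the peptide transporter, Tap1 and Tap2, were lower in skin. Heavy chains and B2m summed to 8191 CPM in skin and 8311 in pLN, a ratio of 0.986 (0.960 to 1.01). Of 12 measured class I members, 1 was higher in skin, where 16.0% of all measured genes were, and 4 were lower, where 30.4% of all were. The higher one was H2-Q4, at 98.3 against 48.0 CPM, a ratio of 2.05 (1.56 to 2.67). Tap1 was 4.19-fold lower in skin (2.16 to 9.29) and Tap2 3.89-fold lower (2.52 to 6.36). H2-M3 was 2.20-fold lower (1.25 to 4.23) and H2-T22 2.08-fold lower (1.36 to 3.34).

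The class I members had a median log2 ratio of -0.16, against -0.38 over all measured genes. With TMM factors, a scaling that centres the bulk of the genes, the class I median was 0.09 and H2-T22 and H2-M3 lost their calls. Tap1 and Tap2 kept theirs, as 2 subunits of 1 transporter, under both scaling alternatives and every alternative choice of cells. The share of class I members lower in skin was near that of all genes. The H2-Q4 call was kept in 5 of 14 alternatives, and its log2 ratio lay between 0.24, without cells holding dividing-cell markers, and 1.29.

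All 5 measured class II members were lower in skin Vγ6 than in pLN Vγ6, against 30.4% of all measured genes. H2-DMa was 4.33-fold lower (1.80 to 13.6), H2-Aa 2.57-fold (1.88 to 3.59), Cd74 2.46-fold (2.20 to 2.77), H2-Ab1 2.43-fold (1.91 to 3.14) and H2-Eb1 2.22-fold (1.48 to 3.49). Their median log2 ratio was -1.30. Class II chains and Cd74 summed to 594 CPM in skin and 1494 in pLN. Dividing-cell markers moved with them, at 252 CPM in skin against 2718 in pLN. Without cells holding 2 or more of these markers the summed ratio went from 0.397 (0.361 to 0.437) to 0.702 (0.629 to 0.782), which is no longer 2-fold. Antigen-presenting-cell markers summed to 420 CPM in skin and 609 in pLN, of which Cst3 alone gave 255 and 401. B cell markers stood at 2.52 and 118 CPM, of which Cd79b alone gave 2.52 and 94.5.

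Of the pathway genes on the class I side, 6 of 10 measured were lower in skin than in pLN and 1 was higher. On the class II side 3 of 3 were lower, and of the interferon signal genes 7 of 13 were higher and 2 lower. Of all measured genes 30.4% were lower and 16.0% higher. Psmb10, a subunit of the immunoproteasome that cuts peptides for class I, was at 8.82 CPM in skin and 189 in pLN, 21.4-fold lower (10.4 to 53.5). Psmb9, another subunit, was 19.7-fold lower (7.65 to 72.8) and Psmb8 was 7.32-fold lower (5.81 to 9.35). Ctss, the protease that trims the invariant chain, was 13.5-fold lower (5.21 to 49.8).

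Between thymus Vγ6 and pLN Vγ6, 1 class I member was called. Heavy chains and B2m summed to 7877 CPM in thymus, a ratio of 0.948 (0.935 to 0.961) to pLN. Of 13 measured class I members 1 was higher, against 11.8% of all measured genes, and 0 were lower, against 11.3%. H2-Q2 was 11.5-fold higher in thymus (5.93 to 25.7). Thymocyte markers also differed, at 90.5 CPM in thymus against 12.6 in pLN. So did Cpa3, at 125 against 0.95 CPM, while the 3 other genes of the mast cell list had no UMI in either library. The part of thymocytes and of cells with Cpa3 in the H2-Q2 result was not tested. Among members below the fold of a call, the ratio was 1.70 for H2-Q4, 1.69 for H2-Q6, 0.744 for H2-D1 and 0.572 for H2-T23. The class I median log2 ratio was 0.10 and that of all genes -0.13. H2-Q2 kept its call under all alternatives run but the CPM minimum of 100.

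Class II parted into 2 groups in this comparison. Cd74 was 12.5-fold lower in thymus (11.4 to 13.7), H2-Eb1 11.9-fold (8.48 to 17.03), H2-Aa 10.1-fold (8.09 to 12.7) and H2-Ab1 10.1-fold (8.43 to 12.1). H2-Oa was 3.34-fold higher (2.39 to 4.76), and H2-Ob was 28.7-fold higher (9.61 to 141) on 3 UMIs in pLN. H2-DMa was 1.51-fold higher (1.21 to 1.90), below the fold of a call. Of 7 measured class II members, 4 were thus lower and 2 higher, against the same 11.3% and 11.8% of all genes, with a median log2 ratio of -3.25. Some marker lists of other cells were lower in thymus too: dividing-cell markers stood at 1048 against 2718 CPM, B cell markers at 37.5 against 118, and dendritic cell or macrophage markers at 228 against 465. Of the dendritic cell or macrophage sums, Cst3 alone gave 212 and 401 CPM. Of the B cell sums, Cd79b alone gave 18.9 and 94.5 CPM, while Ebf1 was higher in thymus, at 15.9 against 6.89 CPM. Summed class II stayed between 0.139 and 0.284 of pLN under all 14 alternatives, those without cells holding dividing-cell or antigen-presenting-cell markers included.

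Of the pathway genes measured between thymus and pLN, 1 of 11 was higher on the class I side, 1 was higher and 1 lower of 4 on the class II side, and 8 of 12 interferon signal genes were higher and 0 lower. Of all measured genes 11.8% were higher and 11.3% lower. Ctsl, the protease of the thymic epithelium that also trims the invariant chain, was 13.8-fold higher (6.84 to 32.4) in thymus. Socs3, a brake on cytokine signals, was 11.3-fold higher (6.82 to 19.99). Irf7 was 5.23-fold higher (4.24 to 6.52) and Ifngr2, a chain of the interferon-γ receptor, 5.10-fold (4.25 to 6.17).

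Between skin Vγ6 and thymus Vγ6, 0 of 13 measured class I members were higher in skin, against 13.7% of all genes, and 4 were lower, against 24.5%. Tap1 was 3.75-fold lower in skin (1.95 to 8.29), Tap2 2.66-fold (1.72 to 4.35), H2-T22 2.58-fold (1.70 to 4.11) and H2-Q2 6.52-fold (2.19 to 32.0) on 3 UMIs in skin. The summed chains were again close, with a ratio of 1.04 (1.01 to 1.07), but their parts differed: heavy chains alone gave 1.31 (1.26 to 1.35) and B2m 0.837 (0.806 to 0.869). The class I median log2 ratio of -0.26 was near the -0.27 of all genes.

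Cd74 was 5.09-fold higher in skin Vγ6 than in thymus Vγ6 (4.42 to 5.86), H2-Eb1 5.34-fold (3.10 to 9.05), H2-Ab1 4.13-fold (3.07 to 5.53) and H2-Aa 3.93-fold (2.67 to 5.72). H2-DMa was 6.56-fold lower (2.78 to 20.4), H2-Oa 13.2-fold lower (3.61 to 110) on 2 UMIs in skin, and H2-Ob at least 5.404-fold lower, from 0 UMIs. Of 7 measured class II members, 4 were therefore higher, against 13.7% of all measured genes, and 3 lower, against 24.5%, with a median log2 ratio of 1.90. Much of the higher class II in skin lay in 2 cells: without cells of 10 or more class II UMIs, the summed class II ratio fell from 2.67 (2.40 to 2.96) to 1.11 (0.929 to 1.32), and the log2 ratios of H2-Aa and H2-Eb1 were -0.74 and -1.21, while Cd74 kept its call. On the class I side of the pathway 5 of 11 measured genes were lower and 1 higher, on the class II side 3 of 3 were lower, and of the interferon signal genes 5 of 13 were lower and 2 higher, against the same 24.5% and 13.7% of all genes. Ctss was 16.1-fold lower (6.25 to 59.3), Psmb9 15.8-fold (6.12 to 58.1) and Psmb10 15.4-fold (7.43 to 38.3).

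Between the 2 skin libraries, class I transcripts made up a smaller share of the UMIs in Vγ4 than in Vγ6, below the fold of a call. Heavy chains and B2m summed to 6652 CPM in Vγ4 and 8191 in Vγ6, a ratio of 0.812 (0.788 to 0.837). Of 10 measured class I members, 2 were lower in Vγ4, against 3.18% of all measured genes, and 0 were higher, against 4.26%. H2-Q7 was 2.09-fold lower (1.59 to 2.74) and H2-Q6 2.01-fold lower (1.27 to 3.16), both at the edge of a call, and both lost it with TMM factors. H2-Q2 was not measured under the 20 CPM rule: its 32 UMIs in Vγ4, spread over 30 cells, against 3 in Vγ6 gave a ratio of 4.38 (1.37 to 22.3).

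All 4 measured class II members were lower in Vγ4, against 3.18% of all measured genes. Cd74 was 11.4-fold lower (8.74 to 14.97), H2-Ab1 28.8-fold (12.6 to 81.2), H2-Aa 105-fold (17.8 to 4233) on 1 UMI in Vγ4, and H2-Eb1 at least 20.3-fold, from 0 UMIs. The median log2 ratio was -4.74, against -0.05 over all measured genes. The summed ratio was 0.0784 (0.0619 to 0.0985). Without cells of 10 or more class II UMIs, 2 in skin Vγ6 and 0 in skin Vγ4, it was 0.248 and only Cd74 kept its call. H2-Ab1 then stood at 3.10 CPM in Vγ4 and 13.9 in Vγ6, below the 20 CPM that a call needs. H2-Aa and H2-Eb1 had 3 and 1 UMIs left in Vγ6. Langerhans cell markers stood at 80.2 CPM in Vγ4 and 137 in Vγ6, and Cd207, which defines that cell type, had no UMI in Vγ4. Of the pathway genes 1 of 8 was higher on the class I side, 0 of 1 was called on the class II side, and 2 of 11 interferon signal genes were higher and 1 lower, against 4.26% and 3.18% of all genes. Socs3 was 3.07-fold higher in Vγ4 (1.94 to 5.10), Psmb10 3.05-fold (1.38 to 7.96), Ifngr1 2.18-fold (1.97 to 2.42), and Irf7, a driver of type I interferon, 2.13-fold lower (1.24 to 3.66).

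**Figure D3:**
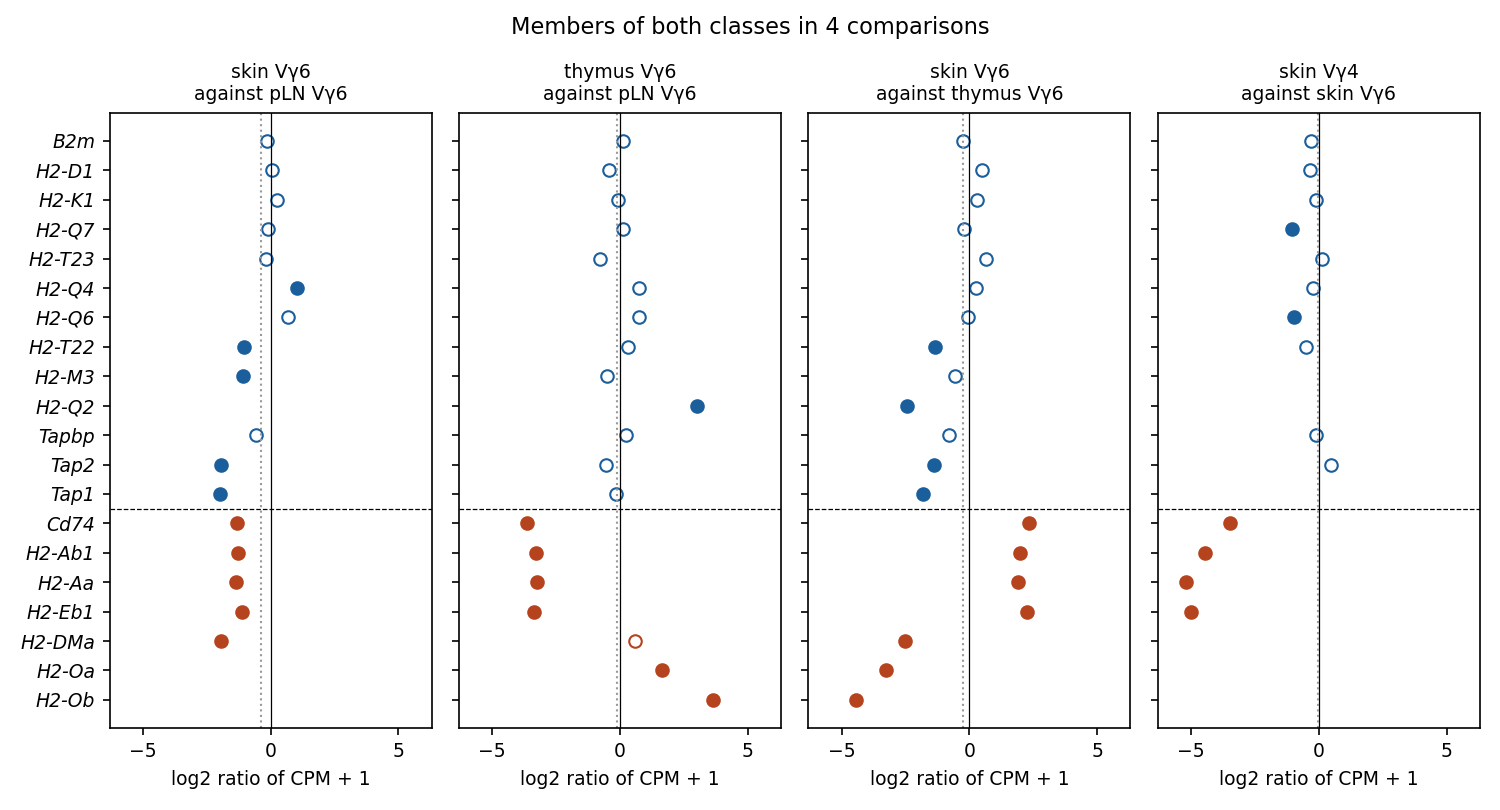
log2 ratio of CPM + 1 for the members measured in each of 4 comparisons, blue for class I and red for class II. Filled points were called, open points were not, and the dotted line is the median of all measured genes. Class I chains lie near 0 with Tap1 and Tap2 to the left in skin Vγ6, and H2-Oa and H2-Ob lie on the opposite side from Cd74 and H2-Ab1 wherever thymus is compared.

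The class II UMIs were not spread evenly over cells. Cells with 10 or more class II UMIs numbered 0 of 1178 in skin Vγ4, 2 of 687 in skin Vγ6, 130 of 1458 in pLN, 7 of 2517 in thymus and 24 of 2006 in the pool. They held 68.4% of the class II UMIs of skin Vγ6, 65.9% of those of pLN, 23.9% of those of thymus and 87.3% of those of the pool. Without them, class II stood at 46.6, 189, 698, 170 and 170.2 CPM in the usual order of libraries, so pLN remained the highest.

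The cells rich in class II differed between libraries in what else they held. In skin Vγ6 the 2 cells had 227 and 95 class II UMIs, no UMI of Cd3e, Cd3g or Cd3d, and Cd207 (langerin, the defining gene of Langerhans cells) at 8647 CPM. In the pool, 11 of 24 had a Cd3 UMI, Lyz2, a gene of macrophages, stood at 3147 CPM and antigen-presenting-cell markers at 7805 CPM against 466 in the other cells. In thymus, 4 of 7 had a Cd3 UMI, and the B cell genes Cd79a and Ms4a1 stood at 241 CPM each against 0.456 and 0.152 in the other cells. The main values above include all of these cells, and no doublet caller was run.

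In pLN the picture was different. There, 126 of 130 cells rich in class II had a Cd3 UMI, and antigen-presenting-cell markers stood at 463 CPM in them against 664 in the remaining cells. Of these sums, Cst3 alone gave 289 and 442 CPM. At least 2 of these markers were nevertheless found in 53.8% of the rich cells against 21.5% of the others. Of the B cell markers, Cd79a stood at 19.4 against 6.83 CPM and Ms4a1 at 18.5 against 0.976. Ebf1 was higher in the rich cells too. Cd79b, the most abundant of them, was lower there, at 73.03 against 102.47 CPM. The rich cells were deep, with a median of 7022.5 against 1670.5 UMIs. Of the rich cells 94.6% held 2 or more dividing-cell markers, against 41.4% of the rest. More UMIs per cell raise every count. As a level Cd74 stood at 2393 CPM in rich and 484 CPM in other pLN cells, and H2-Ab1 at 544 and 97.3 CPM. Since the rich cells were chosen by their class II UMIs, higher levels of these genes follow from the choice. B2m (3480 against 4429 CPM) and H2-K1 (557 against 883 CPM) were lower in the rich cells. Cells in which a T cell and an antigen-presenting cell shared a droplet were not told apart from single cells.

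Class II UMIs in pLN were also common among ordinary cells. A class II UMI was found in 70.0% of pLN cells, against 6.79% in skin Vγ4, 16.0% in skin Vγ6, 32.5% in thymus and 17.3% in the pool. With cells thinned to 1000 UMIs the shares were 51.0% in pLN (48.4 to 53.6%), 5.22% in skin Vγ4 (3.96 to 6.74%), 15.4% in skin Vγ6 (11.9 to 19.4%), 14.9% in thymus (13.5 to 16.3%) and 13.4% in the pool (11.7 to 15.3%). Skin Vγ6, thymus and pool overlapped at equal depth, and pLN stood apart from all of them. The share of these UMIs due to free RNA was not measured.

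**Figure D4:**
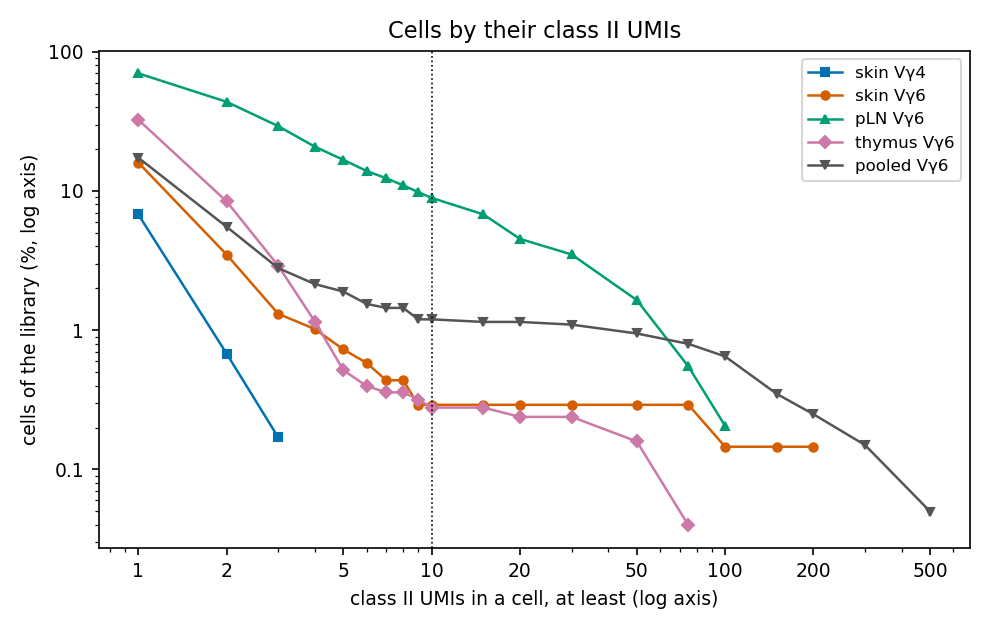
Percentage of cells (log axis) with at least the number of class II UMIs on the horizontal axis (log axis), for 5 libraries, with a dotted line at 10 UMIs. pLN Vγ6 falls smoothly from 70.0% at 1 UMI to 8.92% at 10, whereas skin Vγ6, thymus Vγ6 and the pool hold at most 1.196% of cells at 10 UMIs and then run flat over a few cells of many UMIs.

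The mixture of class II genes also differed. In cells with fewer than 10 class II UMIs, Cd74 UMIs per H2-Ab1 UMI came to 11.5 in skin Vγ4 (5.02 to 32.4) and 11.9 in skin Vγ6 (6.44 to 24.4), against 4.97 in pLN (4.39 to 5.65), 3.78 in thymus (2.96 to 4.88) and 4.66 in the pool (3.49 to 6.29). In the 2 rich cells of skin Vγ6 the ratio was 3.18 (2.37 to 4.33). The class II UMIs of ordinary skin cells were thus 76.7% and 87.9% Cd74, the invariant chain, against 69.3% in pLN and 28.1% in thymus.

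In thymus cells with fewer than 10 class II UMIs, H2-DMa made up 24.0% of class II UMIs, H2-Oa 19.5% and H2-Ob 11.6%. In the same class of pLN cells they made up 3.22%, 1.49% and 0%. The thymus UMIs of these genes were scattered: H2-Oa lay in 201 cells with at most 3 UMIs each, H2-Ob in 132 with at most 2 and H2-DMa in 253 with at most 3. Without the 7 rich cells H2-Oa stood at 33.1 CPM and H2-Ob at 19.7 CPM in thymus, against 33.3 and 20.4 with them.

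The authors deposited mean values of 8 Vγ6 clusters, scaled to 10000 per cluster: pLN_1, pLN_2, Skin and Thy_1 to Thy_5. How the clusters were made was not given in the sources used here, and a cluster mean has no error of its own. The authors' deposited table held 26 members. In the counts below, a tie for lowest went to the first cluster in the order above. Class II in pLN was split between its 2 clusters: Cd74 was at 24.8 in pLN_2 and 3.88 in pLN_1, H2-Ab1 at 5.01 and 0.810, H2-Aa at 3.77 and 0.368, and H2-Eb1 at 1.70 and 0.203. In the 6 other clusters Cd74 lay between 0.202 and 1.97. Of 9 class II members with a value, 6 were highest in pLN_2, where 15.6% of all genes reaching a mean of 0.2 in some cluster were highest. Among these 6, H2-DMb1 (0.216) and H2-DMb2 (0.486) reached 0.2 in pLN_2 only. Their peak there was thus fixed by the minimum. In the same table dividing-cell markers summed to 46.1 in pLN_2 against 1.95 to 18.9 in the other clusters, and antigen-presenting-cell markers to 11.4 against 2.42 to 6.50.

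The other 3 class II members were highest in Thy_1. In the authors' deposited table H2-Oa was at 0.473 there against at most 0.224 elsewhere, H2-Ob at 0.348 against at most 0.217, and H2-DMa at 0.522 against at most 0.389, where Thy_1 was highest for 8.17% of all genes. The authors' deposited table gave H2-Oa in 10.4% of Thy_1 cells and 2.3% of the others, and H2-DMa in 11.9% and 3.7%. Their natural log fold changes for Thy_1 in the authors' deposited table were small, at 0.28, 0.24 and 0.25 for H2-Oa, H2-Ob and H2-DMa. For Cd74 in pLN_2 the same table gave 2.299, and for H2-Ab1 there 1.53.

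Class I was lowest in Thy_5. In the authors' deposited table B2m was at 21.6 there against 39.1 to 70.5 in the 7 other clusters, H2-D1 at 7.71 against 17.1 to 35.4, H2-K1 at 2.43 against 6.13 to 15.5, and H2-Q7 at 0.451 against 1.103 to 2.85. Of 14 class I members reaching a mean of 0.2 in some cluster, 6 were lowest in Thy_5, against 12.9% of all such genes. H2-Q2 went the other way, at 1.89 in Thy_5 and at most 0.1998 in the other clusters. It thus passed the minimum of 0.2 only through Thy_5. The gene was found in 35.6% of Thy_5 cells against 1.6% of other cells. Tap2 was the other class I member highest in Thy_5, at 1.30 against at most 1.08, where 17.7% of all genes were highest. The heavy chains and B2m summed to 35.6 in Thy_5 and to 73.0 to 116 in the others.

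Within the rest of the thymus, the authors' deposited table placed the peak of B2m (70.5), Tapbp (2.58) and H2-T22 (1.56) in Thy_3, against 9.84% of all genes, and that of H2-K1 (15.5), H2-Q7 (2.85), H2-Q4 (1.92), H2-Q6 (1.25) and Tap1 (0.733) in Thy_4, against 11.0%. Nlrc5 (0.208) was the other class I member highest in Thy_4, the only cluster where it reached the minimum of 0.2. The Skin cluster was the lowest of 8 for Tap1 (0.0998), Tap2 (0.249), Tapbp (0.946) and H2-T22 (0.264), where 31.1% of all genes were lowest in Skin. In the authors' deposited table it also counted as lowest for 6 of 9 class II members: H2-Oa, H2-DMa, H2-DMb2, H2-DMb1, H2-Aa and H2-Eb1. Ties at 0 entered this count: H2-DMb2, H2-DMb1 and H2-Eb1 were at 0 in Thy_4 as well. H2-Aa was at 0.0497 in Skin and 0.0505 in Thy_5. H2-Ob was at 0 in both pLN_1 and Skin. The class I chains were not at the bottom in Skin. Heavy chains and B2m summed to 85.7 there, above pLN_2, Thy_1 and Thy_5, although B2m alone, at 39.1, was higher only than in Thy_5.

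**Figure D5:**
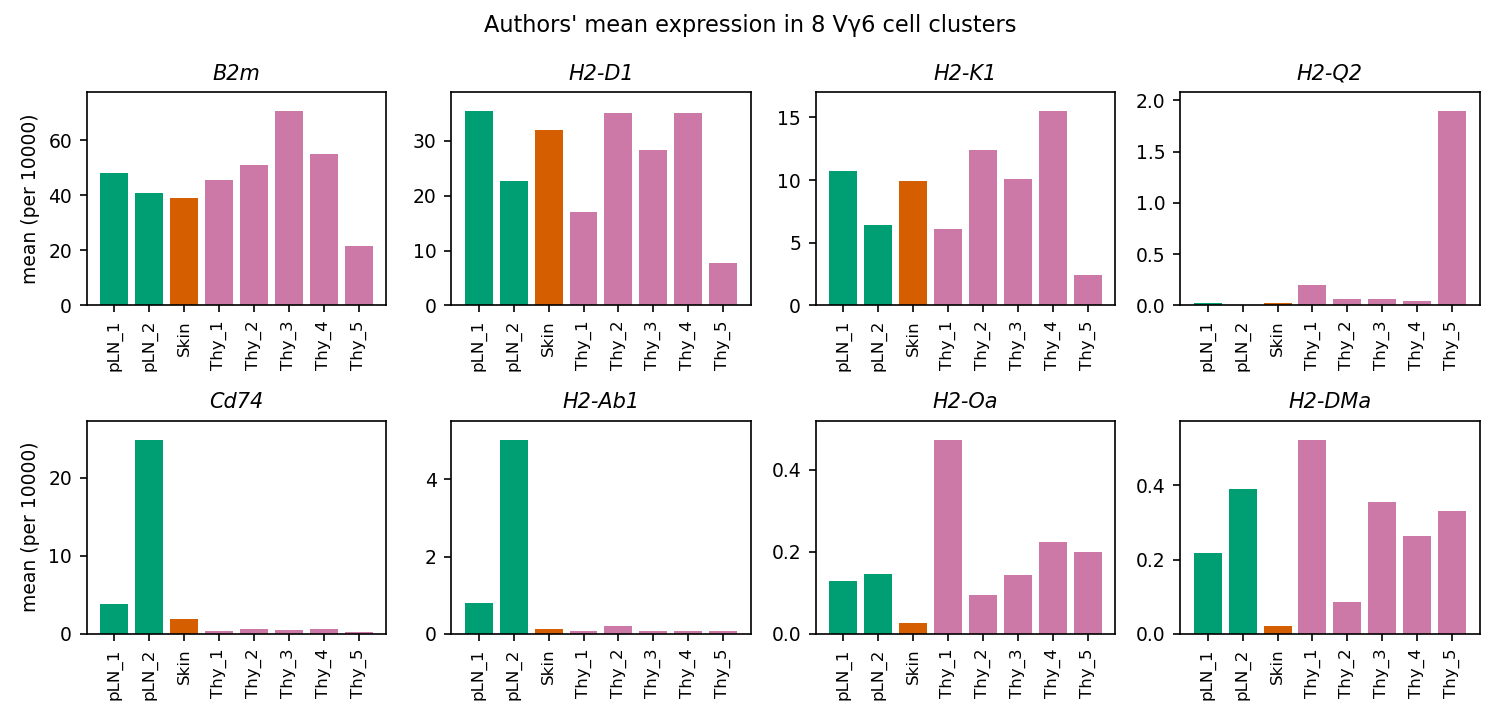
Mean expression of 8 members in the 8 clusters of the authors' deposited table, scaled to 10000 per cluster, with linear axes from 0. Green bars are pLN, orange is Skin and pink bars are thymus clusters. B2m, H2-D1 and H2-K1 are lowest in Thy_5, where H2-Q2 is highest at 1.89, Cd74 and H2-Ab1 peak in pLN_2, and H2-Oa and H2-DMa peak in Thy_1.

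Since the clusters were not mapped to the matrices here, thymus cells were parted by a transcript of immature thymocytes, a split chosen after the cluster means had been seen. Dntt, which encodes the terminal transferase of receptor rearrangement, had a UMI in 260 of 2517 thymus cells. H2-K1 stood at 448 CPM in these and at 816 in the rest, a ratio of 0.549 (0.498 to 0.605). H2-D1 stood at 1342 and 2310 CPM, a ratio of 0.581 (0.549 to 0.615), and B2m at 3110 and 4728 CPM, 0.658 (0.634 to 0.6825). H2-Q7 had a ratio of 0.483 (0.379 to 0.608). H2-Q4, H2-Q6, H2-T22 and Tapbp were lower too, at ratios of 0.597, 0.414, 0.730 and 0.593. The intervals of H2-T23 (0.997), H2-M3 (0.850) and Tap1 (0.705) included 1. Tap2 was higher, at 1.56 (1.24 to 1.94), but with cells thinned to 1000 UMIs its ratio was 1.32 (0.591 to 2.57). H2-Q2 stood at 76.6 and 15.2 CPM, a ratio of 5.04 (3.66 to 6.93), so 78 of its 163 UMIs lay in these cells. The thymus library also held Cd8b1, Cd8a and Cd4, at 47.2, 21.6 and 10.9 CPM. Whether the cells with a Dntt UMI were Vγ6 cells or other thymocytes was not tested.

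Cells with a Dntt UMI were deeper, with a median of 3322.5 against 2083 UMIs. With every cell thinned to 1000 UMIs the ratios were 0.523 for H2-K1 (0.386 to 0.694), 0.600 for H2-D1 (0.509 to 0.703), 0.673 for B2m (0.603 to 0.749) and 7.105 for H2-Q2 (3.59 to 13.2). A split by Cd24a, another gene of immature thymocytes, gave 0.596 for H2-K1 (0.562 to 0.632), 0.643 for H2-D1 (0.621 to 0.665), 0.768 for B2m (0.750 to 0.786) and 2.31 for H2-Q2 (1.65 to 3.26). Thinned, these were 0.684, 0.770, 0.841 and 1.94. In the pooled library, a separate set of animals, 28 cells had a Dntt UMI, and the ratios were 0.233 for H2-K1 (0.146 to 0.353), 0.245 for H2-D1 (0.189 to 0.311), 0.700 for B2m (0.618 to 0.790) and 7.60 for H2-Q2 (1.40 to 27.2) on 3 UMIs. Thinned, the pool held no H2-Q2 UMI in 9 cells with Dntt, and the interval of its B2m ratio, 0.823 (0.579 to 1.14), included 1. The tissue mix of the pool differs between such cells and the rest, which was not tested. H2-K1 and H2-D1 were thus lower in cells with a Dntt transcript in both libraries, and H2-Q2 was higher there in all UMIs of both.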

How the data were processed

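Single sorted γδ T cells of 5 mouse libraries were measured with the Chromium 3′ v2 kit. The authors deposited raw UMI counts per gene and cell barcode with no normalization. The submitters' processing notes name Cell Ranger 2.0, Seurat 2.3 and mm10, without roles. The authors also deposited cluster means, another unit that sums to 10000 per cluster, and a marker table of natural log fold changes, p-values and the fraction of cells with a transcript. Those p-values, computed by the authors over cells, are not printed.

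Cells with at least 200 genes and at most 10% mitochondrial UMIs were kept, and their summed counts became CPM. A call required 20 CPM in the higher of the pair, a 2-fold ratio or more, and an interval without 1. The median log2 ratios used a pseudocount of 1 CPM. Intervals are exact conditional binomial (ratios), Poisson (levels) and Clopper-Pearson (shares), at 95%, and cover counting error only. UMIs are the depth behind each value, and 3 counts bound a count of 0. Scaling alternatives used edgeR 4.0.16 (TMM) and DESeq2 1.42.0 (median of ratios) in R 4.3.3, for factors only, and the rest ran in Python 3.11.15 with scipy 1.17.1. The calls were tested on simulated data.

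Members at 20 CPM or more in any library are named with all their values, with Ciita and Nlrc5, and H2-DMb1 and H2-DMb2 were added after their values were seen. Of the pathway list, the 4 called genes farthest from 1 are named, except 1 gene that is not reported here. The members and lists were chosen with earlier results of these data known. Gene coordinates came from GENCODE M21 by gene ID. Alternatives varied the cells kept, their depth and weight, the scaling and the CPM minimum.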

Additional observations from a re-analysis of the deposited data

How the results depend on the processing

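Of 168 recomputed values that answer a comparison, 142 counted as unchanged, and so did 1245 values of single genes and medians. Of the other values of single genes and medians, 81 fell short of the threshold, 6 newly passed it and 16 changed sign. A ratio counted as unchanged when it kept its call, or when it stayed uncalled in whichever direction. A number of members called did so when it stayed near the main one, and a median when it kept its sign and stayed near. The summed class I ratios were under 2-fold in either direction in all 14 alternatives, but lay on both sides of 1 in the first 3 comparisons: between 0.794 and 1.19 for skin Vγ6 against pLN, 0.849 and 1.03 for thymus against pLN, 0.936 and 1.23 for skin Vγ6 against thymus, and 0.784 and 0.866 for Vγ4 against Vγ6 of skin. Summed class II kept its call for thymus against pLN (0.139 to 0.284) and for Vγ4 against Vγ6 (0.0743 to 0.248).

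The number of class I members called between skin Vγ6 and pLN, 5, was 3 with at least 500 genes and at most 5% mitochondrial UMIs per cell, 3 with thinned cells, 3 with TMM, 3 with median-of-ratios factors and 1 at 100 CPM. Between thymus and pLN, 1 became 2 with thinned cells, 2 with no CPM minimum and 0 at 100 CPM. Between skin Vγ6 and thymus, 4 became 0 at 100 CPM. Between Vγ4 and Vγ6 of skin, 2 became 1 with all barcodes, without cells above 3 times the median UMIs, with thinned cells, with median-of-ratios factors and at 100 CPM, 0 with the stricter cell filter, with the mean over cells and with TMM, and 4 with no CPM minimum. Without mitochondrial and ribosomal protein genes in the total it was also 1, which was H2-Q2, higher in Vγ4, and both lower calls were lost. A CPM minimum changes the genes counted; the cause was not tested for the others.

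The class I median log2 ratio of skin Vγ6 against pLN turned from -0.16 to 0.0363 (stricter cell filter), 0.0905 (TMM) and 0.11 (median of ratios). TMM and median-of-ratios factors also shifted the median of all genes there, by 0.30 and 0.31. For thymus against pLN it turned from 0.10 to -0.19 without cells with dividing-cell markers, -0.10 without cells above 3 times the median UMIs, -0.0324 with thinned cells and -0.0673 at 100 CPM, and for skin Vγ6 against thymus from -0.26 to 0.0561 at 100 CPM. The cause was not tested.

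Summed class II of skin Vγ6 against pLN, 0.397, was no longer 2-fold at 0.702 without cells with dividing-cell markers, 0.572 without cells above 3 times the median UMIs and 0.566 with thinned cells. Against thymus, 2.67 became 0.782 with the stricter cell filter, 1.11 without cells with antigen-presenting-cell markers, 1.66 as the mean over cells and 1.11 without cells of 10 or more class II UMIs. The log2 ratio of H2-Eb1 in skin Vγ6 against pLN turned to 0.0714 without cells with dividing-cell markers. Against thymus, H2-Ab1, H2-Aa and H2-Eb1 turned to -0.22, -3.16 and -2.63 with the stricter cell filter, H2-Aa and H2-Eb1 to -0.77 and -1.35 without cells with antigen-presenting-cell markers, and to -0.74 and -1.21 without cells of 10 or more class II UMIs. The cause was not tested beyond what each alternative leaves out.

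No paired analysis was possible because each group had 1 library, so none was left out in turn either. Members below about 20 CPM rest on few UMIs, and the floor of 3 counts was highest in skin Vγ6, at 3.78 CPM. The alternatives leaving out cells of 10 or more class II UMIs were chosen after seeing the data.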
